A study of Bos taurus with 24 samples.

Results

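The libraries described here are the wells of low responder cows that received E. coli, 3 collected at 18 h and 3 at 3 h, which make 6 of the 24 libraries of the series. They were chosen by their labels alone (low responder, exposed to E. coli, 18 h or 3 h). The cells were monocyte-derived macrophages (MDMs), grown from adherent blood monocytes of mid-lactating Holstein cows in serum-free medium with added GM-CSF. This is the granulocyte and macrophage growth factor, here of bovine sequence. The cells of every well, control wells included, had been grown with this cytokine. Low and high responders were 3 cows each, set apart by how much nitric oxide their MDMs released in vitro after E. coli. An exposed well received inactivated E. coli and a control well was left untreated, and each cow gave 1 well of either kind at 3 h and at 18 h. The 6 control wells of the low responders are the background for the change over time, and the 6 exposed wells of the high responders serve for 1 test of the difference between phenotypes. Strain, genotype and age of the cows were not given in the labels beyond breed and lactation stage, and the bacteria were killed, so the wells model a response to bacterial material and not to bacterial growth. Early and late wells stood on separate culture plates, so time of exposure and plate cannot be told apart, in the exposed or in the control wells.

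Macrophages sense the lipopolysaccharide of Gram-negative bacteria mainly through Toll-like receptor 4 (TLR4) with its partner CD14. The MyD88 branch below the receptor activates NF-kB and MAP kinases and turns on cytokine, chemokine and immediate early genes within hours, while the TRIF branch induces type I interferon and through it the interferon-stimulated genes. Many early transcripts are short-lived, NF-kB induces its own inhibitors, and late transcripts often depend on proteins made in the first wave. In cattle macrophages the inducible nitric oxide synthase NOS2 makes the nitric oxide by which the cows were classed.

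Total counts were 13826986 to 14962894 in the exposed 18 h libraries and 6475372 to 14615657 in the exposed 3 h libraries, against 6297190 to 20936554 in the control libraries of low responders. The 10 most abundant genes took 11.5 to 12.3% of the counts at 3 h and 8.57 to 10.4% at 18 h in the exposed wells, and TMM normalization gave the exposed 3 h libraries factors of 0.781 to 0.851 against 0.994 to 1.056 for exposed 18 h and 1.045 to 1.141 for control libraries. Gene values below are CPM, counts scaled by each library's total and its TMM factor, in the order of replicates 1, 2 and 3. Within a phenotype, libraries of the same replicate number carry the same pair of letters in their codes at both times. The macrophage marker CD68, a lysosomal membrane protein, stood at 1372 to 1907 CPM at 3 h and 1901 to 2326 CPM at 18 h in the exposed wells. CD14 lay at 170.1 to 415 and 78.6 to 199 CPM. The other macrophage markers with an identifier, AIF1 and MSR1, were lower at 18 h in the exposed wells. AIF1 went from 85.37 to 120.5 CPM at 3 h to 21.79 to 34.46 CPM at 18 h. MSR1 went from 385.6 to 654.5 CPM to 53.86 to 60.96 CPM. Of markers of other cells, only CD79A of B cells, PRF1 of cytotoxic lymphocytes and KDR of endothelium had an identifier in the symbol tables. None of these passed 5.15 CPM in any of the 12 low responder libraries. In the exposed wells KDR went from 2.78 to 5.15 to 0.0659 to 0.4797 CPM and PRF1 from 0.505 to 0.594 to 1.03 to 2.44 CPM between 3 h and 18 h. Their part in the results was not tested.

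In a principal component analysis of the 12 low responder libraries, the first component (43.4% of the variance) placed the control libraries between -45.9 and -37.3, the exposed 3 h libraries between 17.1 and 33.8 and the exposed 18 h libraries between 53.2 and 71.4. The second component (22.7%) held the exposed 3 h libraries at 40.6 to 56.2 and the exposed 18 h libraries at -39.7 to -25.1, with the control libraries in between. The exposed wells thus moved from early to late along both components, and no exposed library of one time lay among those of the other.

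**Figure D1:**
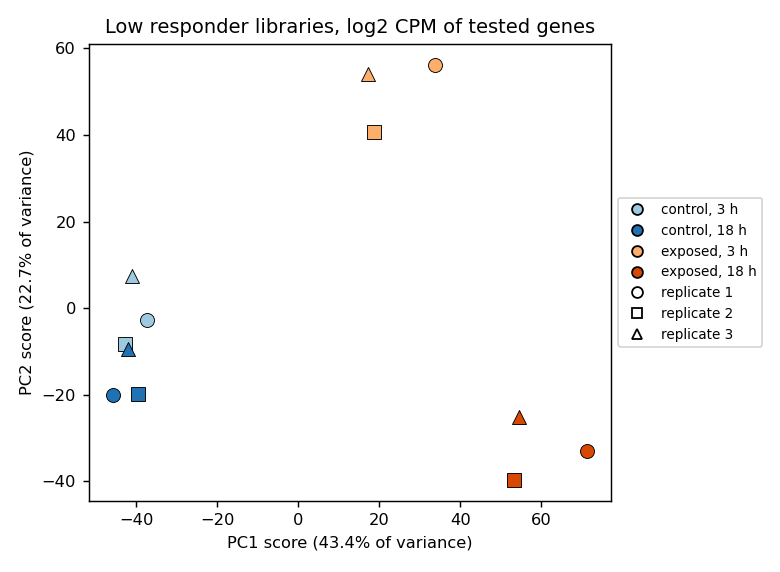
Principal component scores of the 12 low responder libraries on log2 CPM of the tested genes (x axis, first component, 43.4% of the variance; y axis, second component, 22.7%). Colour gives the group and marker shape the replicate; exposed 3 h libraries lie at the upper middle (second component 40.6 to 56.2), exposed 18 h libraries at the lower right (first component 53.2 to 71.4) and all 6 control libraries at the left.

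Between 3 h and 18 h the exposed wells changed widely while the control wells changed little. Of 11599 genes tested, 1185 were higher at 18 h (10.2%) and 1533 lower (13.2%) by edgeR's quasi-likelihood test at a Benjamini-Hochberg adjusted p below 0.05 and a fold above 1.5. Among the called genes 119 were higher and 343 lower by more than 2 on the log2 scale. In the control wells the same fit called 1 gene higher (0.00862%) and 2 lower (0.0172%), with 726 genes at an unadjusted p under 0.05. The median absolute log2 fold change was 0.40 in the exposed and 0.15 in the control wells, and the 90th percentile was 1.35 against 0.50. The 3 libraries of 18 h lay wholly above the 3 of 3 h in 2583 genes (22.3%) and wholly below in 2542 (21.9%) in the exposed wells, and in 535 (4.61%) and 791 (6.82%) in the control wells. Of the 3 genes called in the control wells, each was called in the same direction in the exposed wells. The split between higher and lower depended on scaling: with libraries scaled to their total count alone, 3025 genes were higher and 973 lower in the exposed wells (75.7% higher, against 43.6% with TMM), and the median log2 fold change of all genes moved from 0.033 to 0.358.

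Gene symbols were available for 2269 of the tested genes (19.6%), taken from tables that the study compiled from its own comparisons. Genes with a symbol were called more often than those without (31.2% against 21.6%), with 235 higher (10.4%) and 472 lower (20.8%), so counts by functional role below are of the listed genes with a symbol and lean towards the called ones. The largest falls in list medians were in cell cycle genes (median log2 fold change -1.54, 21 of 27 tested genes lower), cytokines (-1.25, 7 of 12 lower), cholesterol synthesis (-1.21, 5 of 6 lower), immediate early genes (-1.15, 10 of 15 lower) and interferon-stimulated genes (-1.05, 23 of 33 lower), beside 0.03 over all tested genes and -0.05 over those with a symbol. In the control wells the medians of these lists were 0.14, -0.69, -0.30, -0.53 and -0.17. The only list with a median above 0 was that of NRF2 and metal genes (0.42, 2 of 14 higher, 0.74 with total-count scaling). With total-count scaling the medians of 12 lists turned from below to above 0 (TLR signalling, antigen presentation, antimicrobial, complement, hypoxia and glycolysis, interferon gamma-type, TCA cycle, lysosome, proteasome, ribosome biogenesis, solute carriers and unfolded protein), while those of the 5 lists above stayed at -1.21, -0.92, -0.88, -0.83 and -0.72. Counts of called members moved with this scaling too, to 6 higher and 1 lower of 13 antimicrobial genes, 1 and 3 of 15 antigen presentation genes, 7 and none of 14 NRF2 and metal genes, 3 and 3 of 16 lysosomal genes, 7 and 3 of 17 solute carriers and 2 and 5 of 21 unfolded protein and amino acid stress genes.

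**Figure D2:**
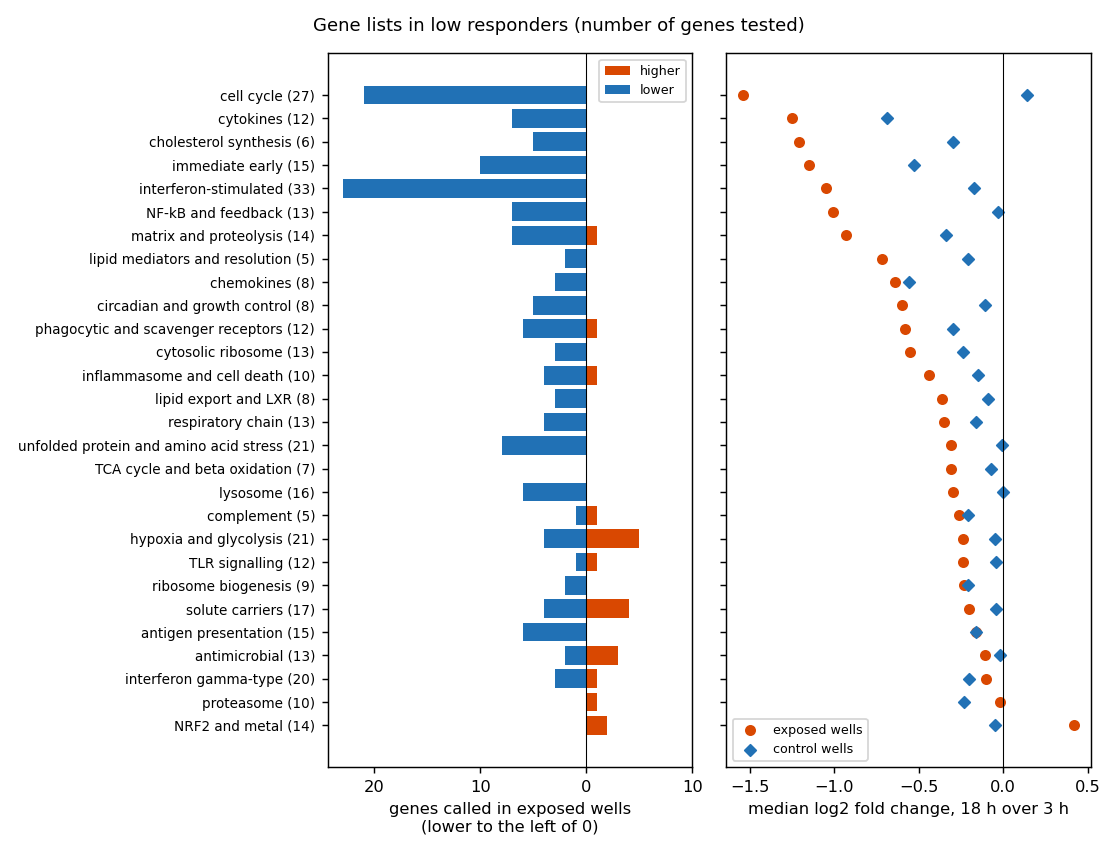
Left, number of genes of each list called lower (blue, to the left of 0) and higher (orange, to the right) at 18 h against 3 h in the exposed low responder wells; right, median log2 fold change of each list in exposed (orange circles) and control (blue diamonds) wells. Numbers in brackets are the genes tested per list; cell cycle genes have the lowest median in exposed wells (-1.54) and a control median of 0.14.

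Of 12 cytokine genes tested (34 were listed), 7 were lower at 18 h than at 3 h, none was higher and 5 were not called. A fit with the letter pair as a block, which takes out lasting differences between cows, gave 8 lower and 2 higher. IL6, a fever-inducing cytokine of the acute phase, stood at 92.02, 78.95 and 360.3 CPM at 3 h and at 0.857, 0.343 and 1.72 CPM at 18 h (log2 fold change -7.50, SE 0.91, adjusted p = 0.000164). The 18 h wells had returned to the span of the control wells, 0.103 to 3.203 CPM. CSF2, which encodes GM-CSF itself, fell from 2184, 2115 and 1419 to 763, 468 and 636 CPM (log2 fold change -1.61, SE 0.34, adjusted p = 0.00464). It remained far above its control wells, which held 7.72 to 25.5 CPM at 3 h and 3.57 to 5.57 CPM at 18 h. The control wells fell by a like amount (log2 fold change -1.78, not called by group). In edgeR's test with a term per pair of wells, the 2 changes of CSF2 were not called apart (difference 0.01, adjusted p = 0.982). CSF1, the macrophage growth factor, went from 1054, 1647 and 1031 to 301, 338 and 275 CPM (log2 fold change -2.03, SE 0.22, adjusted p = 8.75e-05). Exposed and control wells overlapped at 3 h (control 753 to 1305 CPM) and the exposed wells lay below all control wells at 18 h (control 569 to 614 CPM). LIF of the interleukin 6 family (log2 fold change -2.10), the vasoconstrictor EDN1 (-1.53), the activin subunit INHBA (-1.38) and the interferon gamma-inducing IL18 (-1.05) also fell, the last without its call when the exposed 18 h replicate 1 (log2 fold change -0.88, adjusted p = 0.0691) or 3 h replicate 3 (log2 fold change -0.95, adjusted p = 0.0615) was left out. In the test with a term per pair of wells, the difference from the control change was not called for EDN1 (-0.80) and INHBA (-0.38). For LIF (-2.10) and IL18 (-1.16) it was called. IL1B, the pyrogenic cytokine released by the inflammasome, was the most abundant cytokine, at 8960, 5519 and 9843 CPM at 3 h and 4302, 1727 and 5135 CPM at 18 h. Its groups did not overlap, yet it missed the threshold (log2 fold change -1.12, SE 0.52, adjusted p = 0.127) and passed it with the block (log2 fold change -1.22, SE 0.24, adjusted p = 0.00122). IL36A (0.63, SE 0.14, adjusted p = 0.00284) and IL36B (0.87, SE 0.25, adjusted p = 0.0127), epithelial and macrophage relatives of IL1B, were the 2 genes higher with the block only, each on the log2 scale.

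Among chemokines some fell steeply and others stayed high. Of 8 tested (31 listed), 3 fell and none rose. CCL8, a monocyte attractant, had 1980, 1904 and 1665 CPM at 3 h and 3.36, 4.18 and 16.2 CPM at 18 h (log2 fold change -7.87, SE 0.58, adjusted p = 6.53e-06). This was the largest fall among called genes with a symbol, and it ended below the control wells, which held 194 to 316 CPM over both times. CCL4, which attracts monocytes and lymphocytes, fell from 11690, 11820 and 9125 to 1935, 1155 and 1990 CPM (log2 fold change -2.68, SE 0.32, adjusted p = 0.000138). Its close relative CCL3 fell from 12390, 16780 and 10810 to 5524, 3811 and 4927 CPM (log2 fold change -1.49, SE 0.33, adjusted p = 0.00638). Both stayed above their 18 h control wells (239 to 457 CPM for CCL4 and 1140 to 1575 CPM for CCL3). CCL3 was also lower at 18 h in the control wells (log2 fold change -1.05, not called by group). In edgeR's test with a term per pair of wells, its exposed change was not called apart from its control change (difference -0.57, adjusted p = 0.109). For CCL4 the difference was called (-1.89, adjusted p = 0.000801), with a control change of -0.83. The neutrophil attractant CXCL8 stood at 12690, 11620 and 13370 CPM early and 8150, 5999 and 10730 CPM late, without overlap but short of the threshold (log2 fold change -0.60, SE 0.33, adjusted p = 0.194), which it passed with the block (log2 fold change -0.64, SE 0.21, adjusted p = 0.0285). CCL5, which draws T cells, had 5135, 5785 and 3056 CPM at 3 h and 6961, 4377 and 3991 CPM at 18 h, so its groups overlapped. CXCL2, another neutrophil attractant, likewise overlapped, with 7130 to 9610 CPM early and 4879 to 7810 CPM late. Neither was called with or without the block. CCL17 was low throughout, with means of 8.80 and 5.52 CPM in exposed and 7.15 and 3.78 CPM in control wells, and was not called by group. CXCL16 was higher late, with means of 554 and 755 CPM, without overlap but at a fold under 1.5 (log2 fold change 0.45, adjusted p = 0.0273 in the fit by group).

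Immediate early genes, the transcription factors and phosphatases that MAP kinases switch on first, fell in 10 of 15 tested members and rose in none. EGR1, a zinc finger factor, went from 271, 208 and 147 CPM at 3 h to 19.8, 11.7 and 18.3 CPM at 18 h (log2 fold change -3.65, SE 0.26, adjusted p = 6.14e-06). The late exposed wells lay below every control well (23.2 to 47.5 CPM). The orphan nuclear receptor NR4A1 fell from 77.2, 136 and 39.2 to 11.0, 6.65 and 3.51 CPM (log2 fold change -3.57, SE 0.52, adjusted p = 0.000528) and remained above the 18 h controls (0.819 to 1.097 CPM). ATF3, a repressor of inflammatory genes and the most abundant of the list, fell from 1980, 1757 and 1647 to 604, 631 and 555 CPM (log2 fold change -1.59, SE 0.16, adjusted p = 5.59e-05). Smaller falls were found for ETV5 (log2 fold change -1.50), KLF10 (-1.36), DUSP6 (-1.15), MAFF (-1.13) and DUSP1 (-1.09), the dual specificity phosphatases being brakes on MAP kinases. Exposed and control means at 3 h were 22.7 and 20.6 CPM for ETV5, 110.6 and 121.5 for KLF10 and 102.8 and 154.7 for DUSP6. At 18 h they were 8.04 and 20.6, 42.97 and 80.2, and 46.25 and 107.6 CPM. MAFF (530.6 and 48.05, then 241.5 and 32.94 CPM) and DUSP1 (352.6 and 74.59, then 165.9 and 61.49 CPM) had higher exposed means at both times. JUN, an AP-1 subunit, was at 204, 224 and 276 CPM early and 245, 179.9 and 187 CPM late and was not called.

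Genes of NF-kB and its feedback loop moved the same way, with 7 of 13 lower and none higher. TNFAIP3, the ubiquitin-editing inhibitor A20, held 635, 414 and 500 CPM at 3 h and 245, 188 and 213 CPM at 18 h (log2 fold change -1.26, SE 0.17, adjusted p = 0.000353). It was still above its control wells (28.4 to 38.6 CPM). BIRC3, an inhibitor of apoptosis that acts in TNF receptor signalling, fell from 2061, 1230 and 2023 to 389.8, 313 and 402 CPM (log2 fold change -2.27, SE 0.23, adjusted p = 5.26e-05). TNFAIP2 (log2 fold change -1.68), the inhibitor NFKBIE (-1.32), the subunits NFKB2 (-1.18) and RELB (-0.99), and TNIP1, a partner of A20 (-1.01), made up the rest of the called members. Over the 13 genes the median of exposed over control was 2.36 on the log2 scale at 3 h and 1.16 at 18 h.

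**Figure D3:**
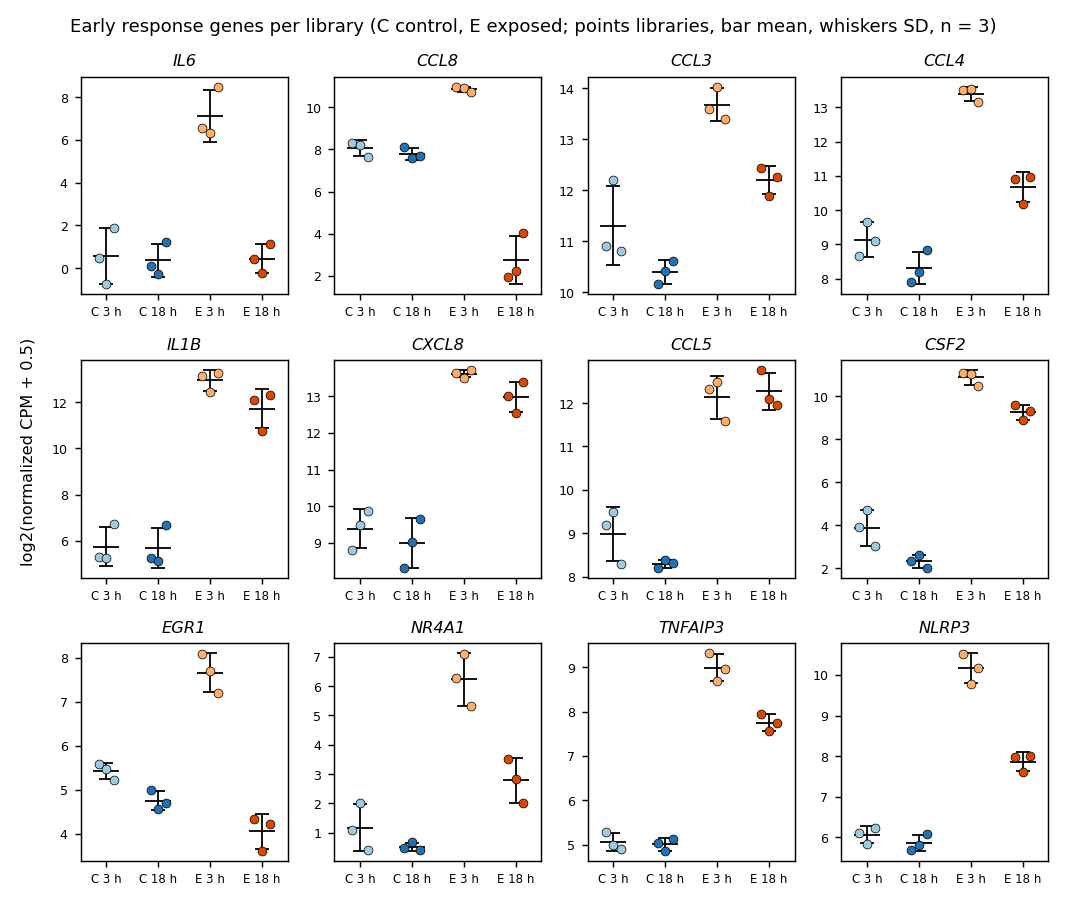
Log2(CPM + 0.5) per library for 12 genes that were high in exposed wells at 3 h; C is control and E exposed, points are libraries, horizontal bars the mean and whiskers the SD of 3 libraries. IL6, CCL8, EGR1 and NR4A1 drop by more than 3 on the log2 scale between exposed 3 h and 18 h, whereas CCL5 overlaps between the times.

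TLR signalling genes were mostly not called, with 1 of 12 higher and 1 lower. IRAK2, a kinase of the MyD88 complex, fell from 759, 628 and 551 to 259, 223 and 193 CPM (log2 fold change -1.52, SE 0.18, adjusted p = 0.000149). SARM1, a TIR domain protein with NAD-cleaving activity, rose from 5.34, 6.16 and 8.25 to 16.5, 19.7 and 21.9 CPM (log2 fold change 1.53, SE 0.20, adjusted p = 0.000289). CD14, the lipopolysaccharide co-receptor, was at 290.1, 170.1 and 415 CPM early and 178, 78.6 and 199 CPM late. It missed the threshold in the fit by group (log2 fold change -0.94, SE 0.42, adjusted p = 0.112) and passed with the letter pair as a block (log2 fold change -0.97, SE 0.12, adjusted p = 4.63e-05). Each replicate was lower at 18 h than its partner at 3 h. TLR4 and TLR2, the receptors for lipopolysaccharide and for bacterial lipoproteins, and the adaptor MYD88 were not called.

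Interferon-stimulated genes held the most fallen genes of any list, with 23 of 33 tested genes lower at 18 h and none higher. IFIT1, which binds foreign RNA ends, stood at 2264, 1471 and 1333 CPM at 3 h and 327, 388 and 271 CPM at 18 h (log2 fold change -2.36, SE 0.30, adjusted p = 0.000233). The late exposed wells were within the span of the control wells (219.7 to 527 CPM). The RNA sensor IFIH1, known as MDA5, fell from 991, 523 and 619.8 to 197, 143 and 149 CPM (log2 fold change -2.13, SE 0.28, adjusted p = 0.000288). DHX58, the related sensor LGP2, fell from 274, 299 and 204 to 69.4, 73.9 and 53.5 CPM (log2 fold change -1.98). USP18, which removes ISG15 and dampens interferon receptor signalling, fell from 449, 418 and 331 to 118, 111 and 83.8 CPM (-1.93). ISG15 itself, a ubiquitin-like modifier and the most abundant of the list, went from 2359, 2560 and 1548 to 807, 703 and 399.8 CPM (log2 fold change -1.76, SE 0.29, adjusted p = 0.00113), and RSAD2, the antiviral enzyme viperin, from 2706, 1652 and 1205 to 632, 449.6 and 453 CPM (log2 fold change -1.86, SE 0.31, adjusted p = 0.00124). The median of exposed over control for the 33 genes was 0.83 on the log2 scale at 3 h and 0.02 at 18 h.

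Of 20 genes more typical of interferon gamma, 1 was higher and 3 were lower (5 and 1 with total-count scaling, 2 higher and 4 lower with the block, which added PDCD1LG2 and GBP5, and 2 higher without the exposed 3 h replicate 1). IRF1, a transcription factor that acts on the NOS2 promoter, fell from 2187, 2176 and 1904 to 1471, 1148 and 1318 CPM (log2 fold change -0.67, SE 0.15, adjusted p = 0.00566), a call lost without the exposed 18 h replicate 2 (log2 fold change -0.58, adjusted p = 0.0272, where the fold was under 1.5). JAK2, the kinase of the interferon gamma receptor, fell from 258, 119 and 182 to 89.9, 65.7 and 85.4 CPM (-1.21). PSMB10, a catalytic subunit of the immunoproteasome, rose from 59.4, 76.1 and 59.6 to 150.2, 133 and 118 CPM (log2 fold change 1.04, SE 0.20, adjusted p = 0.00277) and was the single called member of the 10 proteasome genes. SLAMF7, the most abundant of the list, overlapped with 2376 to 5725 CPM early and 2283 to 4128 CPM late. In antigen presentation 6 of 15 genes fell and none rose. The MHC class II chain BOLA-DRA went from 606, 492 and 462 to 304, 275 and 213 CPM (log2 fold change -0.98, SE 0.19, adjusted p = 0.00313), and BOLA-DMB, which helps load class II peptides, from 81.9, 47.1 and 80.6 to 26.2, 36.9 and 33.4 CPM (-1.12). The adhesion molecule ICAM1 (-1.07), the protease CTSS (-0.78), CALR and BLA-DQB completed the called members, BLA-DQB being uncertain because its counts were fractional, that is shared with similar sequences, in 12 of 12 libraries. B2M, the class I light chain, was not called.

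Among antimicrobial genes 3 of 13 rose and 2 fell (5 and 3 with the block, which added S100A12, SLC11A1 and NCF4), and S100A9 and S100A8 were among the 10 largest rises with a symbol. S100A9, a subunit of the zinc and manganese binding protein calprotectin, went from 12.9, 12.6 and 56.7 CPM at 3 h to 214, 98.7 and 449.9 CPM at 18 h (log2 fold change 3.17, SE 0.76, adjusted p = 0.00886). Its control wells held 6.24 to 26.7 CPM. Its partner S100A8 rose from 33.3, 23.5 and 135 to 374, 178 and 984 CPM (log2 fold change 2.98, SE 0.86, adjusted p = 0.0215), with 13.4 to 60.04 CPM in the control wells. The call for S100A8 was lost without the exposed 3 h replicate 1 (log2 fold change 2.68, adjusted p = 0.0716), the 3 h replicate 2 (log2 fold change 2.58, adjusted p = 0.0651) or the 18 h replicate 3 (log2 fold change 2.08, adjusted p = 0.0862). Replicate 3 had the highest level of both subunits at both times. S100A12, the third calgranulin, was at 170, 98.6 and 488 CPM early and 582, 313 and 1912 CPM late and passed only with the block (log2 fold change 1.81, SE 0.12, adjusted p = 2.56e-07, against log2 fold change 1.89, SE 0.84, adjusted p = 0.11 without it). NOS2 rose from 1746, 826 and 1099 to 4162, 2037 and 3464 CPM (log2 fold change 1.40, SE 0.33, adjusted p = 0.00829). Its control wells stayed at 3.88 to 9.68 CPM. ASS1, which regenerates the arginine that NOS2 uses, went the other way, from 24.1, 20.4 and 27.8 to 5.86, 5.48 and 6.46 CPM (log2 fold change -2.02, SE 0.23, adjusted p = 0.000117). ACOD1, the enzyme that makes itaconate, was also called lower (log2 fold change -0.82), a call lost without the 18 h replicate 1 (log2 fold change -0.89, adjusted p = 0.0671) or 2 (log2 fold change -0.67, adjusted p = 0.125) or the 3 h replicate 1 (log2 fold change -0.63, adjusted p = 0.125) or 3 (log2 fold change -0.83, adjusted p = 0.0771), so that the list then had 1 fallen member. CYBB, the catalytic subunit of the phagocyte NADPH oxidase, was at 3721, 2043 and 3369 CPM early and 4188, 3731 and 4633 CPM late and was not called.

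Inflammasome and cell death genes were lower in 4 of 10 cases and higher in 1. NLRP3, the sensor of the inflammasome that processes IL1B, fell from 1476, 883 and 1154 to 252, 194 and 258 CPM (log2 fold change -2.32, SE 0.20, adjusted p = 2.17e-05). It remained above the control wells (51.3 to 75.2 CPM). CGAS, the cytosolic DNA sensor, fell from 35.8, 23.4 and 25.4 to 7.25, 3.63 and 3.44 CPM (log2 fold change -2.55, SE 0.30, adjusted p = 0.000136), and the late wells were then below the control wells (7.96 to 12.7 CPM). Its downstream adaptor TMEM173 (STING) also fell. NOD2, a sensor of peptidoglycan, rose from 28.1, 25.8 and 38.1 to 60.2, 55.4 and 72.6 CPM (log2 fold change 1.03, SE 0.24, adjusted p = 0.00865).

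The largest rises among genes with a symbol, the calgranulins apart, were in genes with no place in the lists. TGM3, a transglutaminase that cross-links proteins, went from 0.792, 0.128 and 1.35 to 55.6, 13.8 and 20.3 CPM (log2 fold change 5.19, SE 0.70, adjusted p = 0.000338) and was at or below 0.207 CPM in every control well. THBD, or thrombomodulin, which turns thrombin to anticoagulant use, rose from 1.98, 2.18 and 1.68 to 97.6, 44.7 and 63.8 CPM (log2 fold change 5.15, SE 0.32, adjusted p = 4.44e-06). At 3 h the exposed wells lay within the span of the control wells (1.64 to 2.48 CPM), and only the late exposed wells lay above them. APOBEC3Z1, a cytidine deaminase of the APOBEC3 family, stood at 45.3, 25.8 and 37.5 CPM at 3 h and 785, 375 and 634 CPM at 18 h (log2 fold change 4.05, SE 0.47, adjusted p = 0.000128). Its control wells held 0.976 to 6.24 CPM, so that it was already raised at 3 h. RETN, or resistin, a secreted protein with inflammatory activity, rose from 13.1, 23.2 and 52.6 to 301, 89.1 and 328 CPM (log2 fold change 2.98, SE 0.66, adjusted p = 0.00588). AVIL, an actin-binding protein of the villin family, rose from 2.77, 3.08 and 8.75 to 52.5, 21.2 and 100.2 CPM (log2 fold change 3.49, SE 0.62, adjusted p = 0.00175). NXPE4 (3.27), PCDH7, a protocadherin (3.03), and SH2D4A, an SH2 domain adaptor (3.92), rose from low levels, the last with 0 counts in 2 of the 3 libraries of 3 h. C1R, a protease of the classical complement pathway, rose from 8.31, 4.62 and 16.4 to 80.1, 47.3 and 58.3 CPM (log2 fold change 2.62, SE 0.42, adjusted p = 0.000885). Of the 5 complement genes tested it was the only one higher, and CD59, the only one lower, was at or under 1.39 CPM in every exposed library. The call for CD59 was lost without the 18 h replicate 1 (log2 fold change -1.97, adjusted p = 0.0981) or 2 (log2 fold change -2.0, adjusted p = 0.0966) or the 3 h replicate 1 (log2 fold change -1.70, adjusted p = 0.113), against -2.29 with all libraries. MMP25, a membrane-anchored matrix metalloproteinase, rose from 5.54, 3.59 and 7.07 to 30.2, 19.7 and 28.2 CPM (log2 fold change 2.25, SE 0.32, adjusted p = 0.000464). CCR1, a receptor for CCL3 and CCL5, rose from 184, 211 and 238 to 426, 357 and 587 CPM (log2 fold change 1.11, SE 0.23, adjusted p = 0.00369). In this case the early exposed wells were below the control wells (455 to 896 CPM), and of the late ones only replicate 3 lay within their span.

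**Figure D4:**
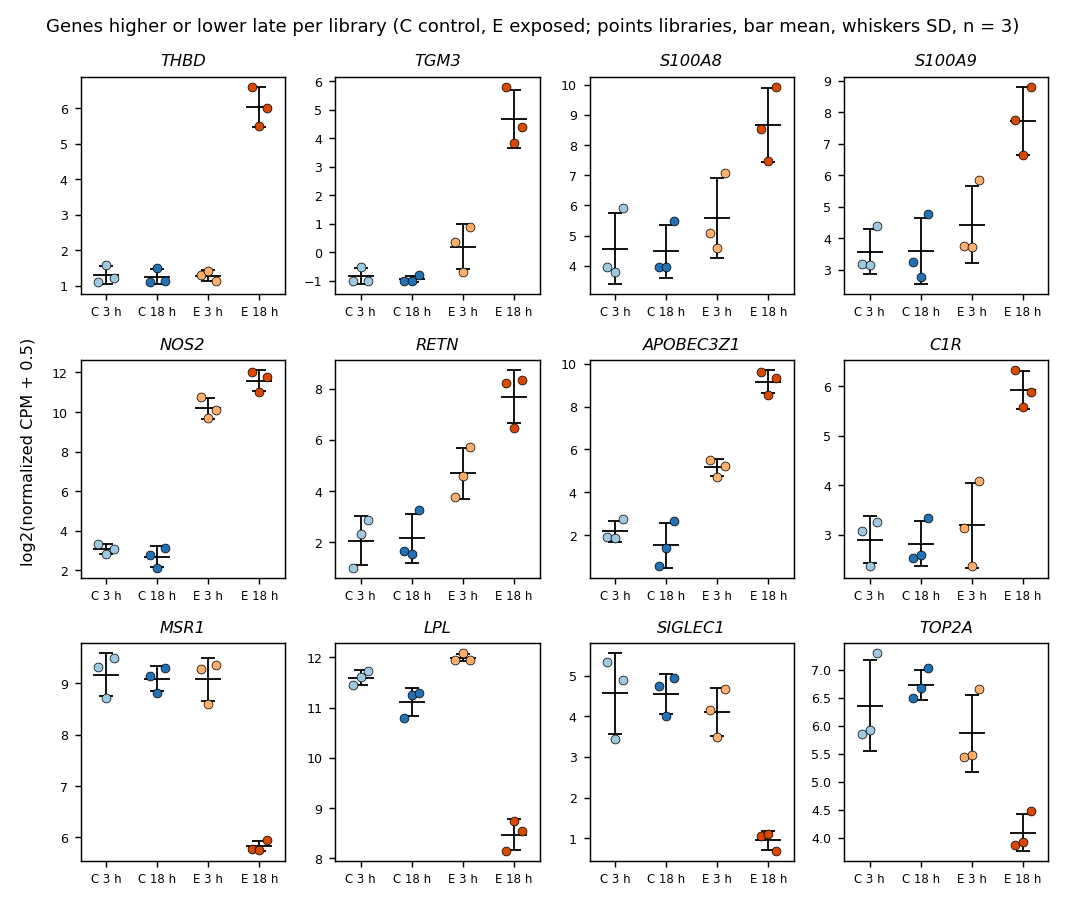
Log2(CPM + 0.5) per library for 8 genes that rose and 4 that fell in exposed wells between 3 h and 18 h; C is control and E exposed, points are libraries, horizontal bars the mean and whiskers the SD of 3 libraries. THBD is level in the first 3 groups and high only in exposed 18 h wells, while MSR1, LPL, SIGLEC1 and TOP2A are lowest there.

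Genes without a symbol were among the extremes as well. ENSBTAG00000013300 had no counts in any exposed 3 h library and 5.47, 5.07 and 5.22 CPM at 18 h. ENSBTAG00000012529 rose from 0.594, 0.128 and 0.0842 to 28.1, 20.6 and 10.7 CPM (6.49 on the log2 scale) and had 0 counts in all 6 control wells. ENSBTAG00000031397 fell from 26.1, 16.7 and 49.8 to 0.0659, 0 and 0.412 CPM (-7.53), and ENSBTAG00000004560 from 12.1, 3.47 and 8.501 to 0, 0.137 and 0 CPM (-7.16). The symbol tables name none of these 4 genes.

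Of 21 hypoxia and glycolysis genes 5 were higher and 4 lower, and with total-count scaling 5 were higher and none lower. ADM, or adrenomedullin, a vasodilator peptide induced by low oxygen, rose from 29.1, 26.2 and 58.9 to 113, 84.97 and 176 CPM (log2 fold change 1.70, SE 0.31, adjusted p = 0.00209). NDRG1, another hypoxia-induced gene, rose from 164, 168 and 206 to 357, 259 and 318 CPM (0.79), and SLC2A1, the glucose transporter GLUT1, from 162, 148 and 125 to 273, 249 and 217 CPM (0.76). The enolase ENO3 went from 13.1, 11.04 and 32.7 to 65.7, 40.6 and 123 CPM (log2 fold change 1.98, SE 0.54, adjusted p = 0.0164), a call lost without the exposed 3 h replicate 1 (log2 fold change 1.79, adjusted p = 0.0578) or 2 (log2 fold change 1.70, adjusted p = 0.0571) or the 18 h replicate 3 (log2 fold change 1.45, adjusted p = 0.0692), each of which left 3 risers in the list. The 4 fallen genes were the glycolytic enzymes PFKP, GAPDH and TPI1 and the transporter SLC2A3, of which 1 was called without the 18 h replicate 2. HIF1A, the oxygen-regulated factor, was not called. Of NRF2 and metal genes, the cation importer SLC39A8 rose from 230.4, 163 and 254 to 519, 351 and 380.4 CPM (log2 fold change 0.95, SE 0.21, adjusted p = 0.00574) and GCLM, a subunit of the enzyme that starts glutathione synthesis, from 17.8, 16.3 and 13.6 to 28.7, 29.7 and 30.7 CPM (log2 fold change 0.91, SE 0.14, adjusted p = 0.000754). Without the 18 h replicate 1 the list had 4 risers, and 1 gene was called lower without the 3 h replicate 2 or the 18 h replicate 3. The metallothionein MT2A was at 163, 216 and 297 CPM early and 682, 195 and 406 CPM late, above its control wells (9.87 to 39.7 CPM) at both times, and was not called. In the TCA cycle and beta oxidation list none of 7 genes was called, and 1 rose without the 18 h replicate 1, 2 fell without the 3 h replicate 2 and 1 fell without the 18 h replicate 3. Solute carriers other than these gave SLC6A12, a carrier of betaine and GABA, as higher (1.44) and the nucleoside transporter SLC29A1 as lower (-2.01), with 4 of 17 in each direction. SLC6A12 had means of 25.5 CPM early and 69.9 CPM late in exposed wells, against 49.1 and 74.8 CPM in control wells. Its exposed change was not called apart from its control change of 0.61 (difference 0.77).

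Of 12 phagocytic and scavenger receptor genes, 6 fell between 3 h and 18 h in the exposed wells, 1 rose and 5 were not called. MSR1, the class A scavenger receptor that takes up modified lipoprotein and bacteria, stood at 619, 386 and 655 CPM at 3 h and 54.6, 53.9 and 60.96 CPM at 18 h (log2 fold change -3.29, SE 0.25, adjusted p = 8.19e-06). The early exposed wells overlapped their controls (417 to 721 CPM), and the late ones lay far below theirs (451 to 627 CPM). SIGLEC1, the sialic acid receptor also called CD169, fell from 17.4, 10.7 and 25.1 to 1.58, 1.65 and 1.10 CPM (log2 fold change -3.62, SE 0.52, adjusted p = 0.000464), with 10.4 to 40.2 CPM in the control wells. LPL, the lipase that frees fatty acids from lipoproteins, fell from 3971, 4331 and 3969 to 282, 427 and 370.4 CPM (log2 fold change -3.51, SE 0.19, adjusted p = 3.92e-06). Early exposed wells were above the controls (2779 to 3413 CPM at 3 h) and late ones below (1766 to 2520 CPM at 18 h). The low-affinity immunoglobulin receptor FCGR3A fell from 73.6, 78.95 and 112 to 21.9, 14.8 and 41.2 CPM (-1.77) and its signalling chain FCER1G from 805, 837 and 833 to 360.1, 302 and 436 CPM (-1.17). The called members also included TREM1, CLEC4E and CSF2RA, the alpha chain of the GM-CSF receptor (-1.10), and CCR1 was the single riser. Other large falls were in single genes of varied roles. TNFSF13, the B cell factor APRIL, fell from 21.6, 11.2 and 23.2 to 1.98, 1.302 and 2.47 CPM (log2 fold change -3.28, SE 0.44, adjusted p = 0.000298) while its control wells held 14.4 to 38.1 CPM. GLIPR1, a secreted protein of the CAP family, fell from 103, 66.4 and 89.97 to 7.58, 6.92 and 12.9 CPM (-3.24), and AIF1, the macrophage marker IBA1, from 121, 85.4 and 119 to 34.5, 21.8 and 33.1 CPM (-1.86). VSIR, the immune checkpoint VISTA, fell from 11.1, 8.47 and 12.5 to 1.05, 0.754 and 1.99 CPM (log2 fold change -3.07, SE 0.35, adjusted p = 0.000106), and ANXA1, an anti-inflammatory annexin, from 1029, 1054 and 1063 to 399, 528 and 530.4 CPM (-1.11). These were the 2 fallen genes of the 5 tested lipid mediator and resolution genes. In these bulk libraries a smaller share of cells with a transcript and less of it per cell cannot be told apart.

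Cholesterol genes fell in 5 of 6 cases. INSIG1, which holds back the transcription factor SREBP, went from 242, 102 and 231 to 46.9, 24.7 and 33.7 CPM (log2 fold change -2.45, SE 0.31, adjusted p = 0.000231). CYP51A1 and ACAT2, enzymes of sterol metabolism, were also called. PPARG, the lipid-sensing nuclear receptor, fell from 41.4, 33.9 and 33.2 to 17.9, 17.5 and 15.9 CPM (log2 fold change -1.08, SE 0.12, adjusted p = 0.000122). It was, with LPL, among 3 fallen genes of 8 in lipid export and LXR. ABCA1, the cholesterol exporter, was at 321, 184 and 259.9 CPM early and 431, 367 and 481 CPM late and passed with the block only (log2 fold change 0.75, SE 0.20, adjusted p = 0.00984). Lysosomal genes fell in 6 of 16 cases, the largest being GPNMB, a glycoprotein of lysosome and melanosome, from 2126, 1084 and 1897 to 243, 364 and 444 CPM (log2 fold change -2.28, SE 0.32, adjusted p = 0.000421). The ion channel TPCN1 (-1.79) and the proton pump subunit ATP6V1B2 (-1.10) were next, and with the block the list had 1 riser, RAB38. Of matrix and proteolysis genes 7 of 14 fell, a count of 4 without the 18 h replicate 2 or the 3 h replicate 3, and MMP25 rose. THBS1, the matrix glycoprotein thrombospondin, fell from 167, 90.2 and 259.7 to 9.36, 9.73 and 41.4 CPM (log2 fold change -3.10, SE 0.62, adjusted p = 0.00338), and HAS2, a hyaluronan synthase, from 8.91, 6.42 and 5.98 to 2.77, 2.06 and 1.92 CPM (log2 fold change -1.63, SE 0.30, adjusted p = 0.00229). PLAUR, the urokinase receptor (-0.98), MMP14 and ICAM1 were among the others. Control wells went the same way for HAS2 (-1.21), THBS1 (-1.15) and SERPINB2 (-0.97), not called by group. In edgeR's test with a term per pair of wells, the exposed change was below the control change in 2 of the 14, THBS1 and ICAM1. At 3 h the exposed and control means were 7.1 and 38.5 CPM for HAS2 and 172 and 308 CPM for THBS1.

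Cell cycle genes were lower in 21 of 27 cases and higher in none, with a control median of 0.14 on the log2 scale over the same time. Leaving out 1 exposed library at a time gave 15 to 22 lower. The count of 15 came without the 3 h replicate 3, where the median log2 fold change was -1.19. TOP2A, the topoisomerase of dividing cells, stood at 43.1, 44.2 and 101 CPM at 3 h and 14.2, 14.7 and 21.7 CPM at 18 h in exposed wells (log2 fold change -1.90, SE 0.43, adjusted p = 0.00644). Its control wells held 57.3, 59.9 and 156 CPM at 3 h and 89.5, 102 and 129.5 CPM at 18 h. UHRF1, which maintains DNA methylation at replication, fell from 32.7, 34.2 and 46.6 to 6.19, 7.401 and 7.49 CPM (log2 fold change -2.43, SE 0.26, adjusted p = 7.99e-05). The mitotic cyclin CCNB1 fell to 6.13, 8.497 and 10.5 CPM at 18 h (log2 fold change -2.30, SE 0.44, adjusted p = 0.00271), the G1/S cyclin CCNE2 from 5.74, 4.24 and 5.13 to 1.12, 0.959 and 1.44 CPM (-2.09) and the factor E2F8 from 3.36, 5.26 and 8.33 to 0.725, 0.959 and 1.44 CPM (-2.47). MCM5, part of the replicative helicase, went from 22.2, 34.02 and 39.3 to 9.22, 11.1 and 12.03 CPM (log2 fold change -1.57, SE 0.24, adjusted p = 0.000796). The median of exposed over control was -0.29 on the log2 scale at 3 h and -1.77 at 18 h. CDKN1A, the inhibitor p21 and most abundant of the list, and CDKN1B, or p27, were not called.

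In the unfolded protein and amino acid stress list 8 of 21 fell and none rose, with 5 fallen without the 18 h replicate 1 or the 3 h replicate 3. CHAC1, which degrades glutathione, went from 20.8, 32.9 and 26.4 to 2.31, 3.43 and 3.09 CPM (log2 fold change -3.18, SE 0.44, adjusted p = 0.000384), and PSAT1, of serine synthesis, from 363, 428 and 373 to 107, 111 and 123 CPM (log2 fold change -1.77, SE 0.17, adjusted p = 3.28e-05). The amino acid transporter SLC7A5 (log2 fold change -1.28), SESN2, a leucine sensor (-1.23), and the factor ATF4 (-0.60) also fell. The 13 genes not called included ASNS (-0.30), TRIB3 (-0.51), DDIT3 (-0.18), SLC3A2 (-0.37) and SLC7A11 (0.39). DDIT4, an inhibitor of mTORC1, fell from 266, 268 and 412 to 70.6, 47.6 and 112 CPM (log2 fold change -2.04, SE 0.29, adjusted p = 0.000453), and FKBP5, a co-chaperone of the glucocorticoid receptor, from 92.6, 59.4 and 68.7 to 14.5, 20.2 and 15.4 CPM (log2 fold change -2.13, SE 0.25, adjusted p = 0.000138). These belong to the circadian and growth control list, in which 5 of 8 fell, 2 without the 3 h replicate 1 or the 18 h replicate 2, and 3 without the 18 h replicate 1 or the 3 h replicate 3. The list had 2 risers without the 18 h replicate 2, 1 without the 3 h replicate 3, and 1, PER2, with the block. With total-count scaling it had 3 risers and 2 fallen genes. The counts for ribosome and respiratory chain genes stand beside 20.8% called lower over all tested genes with a symbol. Of 13 cytosolic ribosome genes 3 fell (1 with total-count scaling), RPS26 most (-1.11), though its counts were fractional in 11 of 12 libraries and so are uncertain. Of 13 respiratory chain genes 4 fell, led by the ATP synthase subunit ATP5MC3 (log2 fold change -0.91, SE 0.22, adjusted p = 0.00914), and 1 or 2 fell when the 18 h replicate 1, the 18 h replicate 3, the 3 h replicate 2 or the 3 h replicate 3 was left out. With total-count scaling none of the 13 was called (median log2 fold change -0.03). Of 9 ribosome biogenesis genes FBL and NCL fell, and only 1 did without any 1 of the libraries other than the 3 h replicate 2. FBL was also lower at 18 h in the control wells (log2 fold change -0.56, not called, against -0.69 in exposed wells). In edgeR's test with a term per pair of wells, RPS26 was the only fallen gene of these 3 lists whose exposed change was called below its control change.

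Over the same time the control wells showed 3 calls by group, all in genes without a symbol. ENSBTAG00000006343 went from 17.6, 24.6 and 28.6 to 5.17, 3.97 and 6.25 CPM in control wells (log2 fold change -2.22, SE 0.24, adjusted p = 0.00898) and from 44.3, 42.8 and 52.01 to 5.34, 7.88 and 5.36 CPM in exposed wells (-2.90). ENSBTAG00000036078 fell in control wells from 563, 482 and 542 to 249, 276 and 274 CPM (log2 fold change -0.99, SE 0.12, adjusted p = 0.0247) and in exposed wells by a like amount, from 678, 519.6 and 588 to 340.2, 315 and 297 CPM (-0.91). The third gene, ENSBTAG00000021685, rose from 8.49, 13.1 and 8.46 to 32.1, 57.6 and 42.9 CPM in control wells (log2 fold change 2.14, SE 0.30, adjusted p = 0.0499) and less in exposed wells, from 9.301, 17.7 and 11.5 to 17.5, 28.9 and 23.2 CPM (0.84). In the exposed wells this last call was lost without the 3 h replicate 1 (log2 fold change 0.68, adjusted p = 0.144) or 3 (log2 fold change 0.76, adjusted p = 0.147) or the 18 h replicate 2 (log2 fold change 0.65, adjusted p = 0.162) or 3 (log2 fold change 0.83, adjusted p = 0.0992). The control count was 0 without the control 18 h replicate 1 or 2 and 1 without the 3 h replicate 1, the 18 h replicate 3 or the 3 h replicate 3.

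With the letter pair as a block, the control wells had 30 genes higher (0.259%) and 41 lower (0.353%), and 1472 at an unadjusted p under 0.05. Of the 30, 15 were also higher and 2 lower in the exposed wells in this fit, and of the 41, 36 were also lower and 2 higher. The following were chosen after their values were seen. TNFSF18, the ligand of the T cell receptor GITR, fell from 30.1, 33.2 and 23.3 to 7.51, 8.48 and 6.697 CPM in control wells (blocked log2 fold change -1.93, SE 0.15, adjusted p = 6.98e-05) and from 27.1, 39.3 and 20.03 to 8.17, 11.1 and 5.77 CPM in exposed wells (-1.78 by group). Exposed and control wells overlapped at both times. TNFSF4, the ligand of OX40, fell in control wells from 19.8, 24.2 and 16.4 to 6.34, 7.76 and 9.38 CPM (blocked log2 fold change -1.35, SE 0.18, adjusted p = 0.00487) and further in exposed wells, from 24.5, 28.4 and 21.1 to 3.62, 5.55 and 4.33 CPM (-2.45). CSF2 (blocked -1.74, SE 0.32, adjusted p = 0.0346), CSF1 (-0.76, SE 0.13, adjusted p = 0.0279), HAS2 (-1.17, SE 0.15, adjusted p = 0.00387), INHBA (-0.98, SE 0.20, adjusted p = 0.0443) and SERPINB2 (-0.97, SE 0.12, adjusted p = 0.00234) likewise fell in the control wells, each on the log2 scale.

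Whether the exposed wells changed by another amount than the control wells was tested with a term for each pair of control and exposed wells. The exposed change was above the control change in 921 genes (7.94%) and below it in 1453 (12.5%), or 284 and 598 without the pair terms. On the upper side stood THBD (difference of log2 changes 5.04, adjusted p = 2.46e-05), APOBEC3Z1 (4.57) and NOS2 (1.82, adjusted p = 8.14e-05). On the lower side CCL8 (-7.80, adjusted p = 2.47e-06) and IL6 (-6.95, adjusted p = 4.77e-06) came first. ARHGEF10L, a guanine nucleotide exchange factor, had 3.56, 3.34 and 3.87 CPM at 3 h and 0.198, 0.274 and 0.893 CPM at 18 h in exposed wells against 9.74 to 24.6 CPM in control wells (-3.47). GPR34, a lysophospholipid receptor, had 4.16, 1.16 and 3.79 and 0.264, 0.206 and 0.275 CPM against 14.2 to 39.01 CPM (-3.24). Both were below the control wells at 3 h already and lower again at 18 h. By role, the exposed change was below the control change in 25 of 33 interferon-stimulated, 23 of 27 cell cycle, 10 of 13 NF-kB and feedback, 9 of 15 immediate early and 5 of 12 cytokine genes. It was above in 5 of 13 antimicrobial and 5 of 21 hypoxia and glycolysis genes. Some lists with called falls in the exposed wells had few genes below the control change. These were 2 of 14 matrix and proteolysis, 2 of 8 circadian and growth control and 1 of 13 cytosolic ribosome genes. None of 13 respiratory chain and none of 9 ribosome biogenesis genes was below it. Over all 2269 tested genes with a symbol, from which these lists were drawn, the exposed change was below the control change in 440 and above it in 203.

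Exposed wells of low and high responders were compared by the difference of their changes from 3 h to 18 h. In the fit of all 24 libraries by group, 0 of 11905 genes were called in either direction (0% higher and 0% lower), with 523 at an unadjusted p under 0.05 and 4 called by DESeq2. With the letter pairs as a block, the low minus high difference was called above 0 in 5 genes (0.042%) and below 0 in 32 (0.269%), with 1212 at an unadjusted p under 0.05. Values for these, chosen after they were seen, are CPM scaled over all 24 libraries. S100A12 rose from 166, 96.1 and 476 to 568, 306 and 1864 CPM in low and from 66.5, 85.7 and 34.6 to 997, 2398 and 684 CPM in high responders (low minus high -2.51, SE 0.27, adjusted p = 0.000372). S100A9 went from 12.5, 12.3 and 55.4 to 208, 96.3 and 439 CPM in low and from 8.25, 33.4 and 4.65 to 488, 1217 and 578 CPM in high responders (-2.61, SE 0.48, adjusted p = 0.025). At 3 h the low responder wells lay above the high responder wells for S100A12 and overlapped them for S100A9, and at 18 h they overlapped for S100A12 and lay below for S100A9. ENO3 went from 12.7, 10.8 and 31.9 to 64.1, 39.6 and 119.9 CPM in low and from 4.99, 8.88 and 4.52 to 151, 164 and 132 CPM in high responders (-2.58, SE 0.34, adjusted p = 0.00308). IL6 dropped further in low responders, from 89.7, 76.96 and 352 to 0.835, 0.334 and 1.68 CPM, than in high responders, from 111, 80.1 and 92.4 to 8.94, 16.0 and 1.68 CPM (-3.84, SE 0.61, adjusted p = 0.0157). At 18 h replicate 3 of the low responders was level with replicate 3 of the high responders, and the other low responder wells lay below. LGMN, the lysosomal protease legumain, was at 1415, 806 and 1539 CPM and then 1142, 1157 and 1251 CPM in low responders and went from 3171, 2840 and 4376 to 1071, 1023 and 1837 CPM in high responders (1.43, SE 0.24, adjusted p = 0.0157). ETV5 fell from 26.4, 11.8 and 28.4 to 5.85, 7.42 and 10.3 CPM in low and from 123, 86.6 and 75.8 to 8.09, 8.47 and 5.29 CPM in high responders (2.23, SE 0.32, adjusted p = 0.00824), with higher 3 h values in all high responder wells. The transport proteins TPCN1 (2.40, SE 0.46, adjusted p = 0.0375) and ABCA10 (3.64, SE 0.73, adjusted p = 0.0404) and ENSBTAG00000003880 (1.23, SE 0.25, adjusted p = 0.0439) were the other genes called with a difference above 0 by this fit. Such a difference can be a smaller fall in low responders, as for ETV5.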

How the data were processed

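RNA of bovine MDMs was sequenced as stranded paired-end mRNA libraries. According to the study's methods, reads were trimmed with Trimmomatic, aligned with STAR to the UMD 3.1 bovine genome and quantified per gene with RSEM. The authors deposited, for each of the 24 libraries, expected counts (RSEM's estimates, shared among genes for ambiguous reads and not normalized) and TPM, which RSEM derived from them by effective length. TPM was not tested.

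Expected counts were rounded to whole numbers. Genes passing filterByExpr were normalized by TMM and tested with edgeR 4.0.16 (R 4.3.3) by the quasi-likelihood test, with group as the only term, on the 12 low responder libraries (11599 genes) or all 24 (11905 genes). A call needed a Benjamini-Hochberg adjusted p below 0.05 over all genes tested and a fold above 1.5. The difference between exposed and control change had a term per pair of wells. Log2 fold changes are edgeR estimates. CPM values use the TMM factors of the 12 libraries unless stated. DESeq2 1.42.0 was an alternative. Scripts were tested on simulated data.

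Letter pairs of the library codes matched wells across time. They were taken to mark a cow, which the labels do not say in words. Deviations from group means correlated at 0.353 to 0.582 between exposed low responder libraries of the same letters and at -0.405 to -0.0581 between different letters, and at 0.288 to 0.46 in high responders with the same letters. There were 3 cows per group. P-values of the fits by group measure the spread between cows within a group. These fits treat wells of the same cow at other times or exposures as independent. P-values of fits with a term per letter pair or per pair of wells measure the spread left after that term is taken out.

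Gene symbols came from the study's supplementary tables, where rows may be missing, and 2269 of the 11599 tested genes had one. Genes were named by size of change (10 rises and 10 falls with a symbol, a mean of at least 5 CPM in an exposed group and no overlap between the times, 8 and 8 for the difference from controls, 2 and 2 without a symbol) and, in each list, by the 4 largest changes and the most abundant member. Others were named to account for counts. The samples, gene lists and rules were chosen with earlier results of these data known. The authors' own quality control and comparisons were not used. Values of a few genes are not reported here.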

Additional observations from a re-analysis of the deposited data

Results flagged for a closer look

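For 16 genes the effect of E. coli, exposed over control, differed between 18 h and 3 h by a test of the difference itself, in edgeR with a term per pair of wells. They are the 8 largest rises and 8 largest falls with a symbol and a mean of at least 5 CPM in a group, and all values are differences of log2 effects, 18 h minus 3 h.

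The effect was larger at 18 h for THBD (5.04, adjusted p = 2.46e-05), APOBEC3Z1 (4.57, adjusted p = 0.000103), PCDH7 (4.09, adjusted p = 0.00267), SH2D4A (4.09, adjusted p = 0.0471), AVIL (3.40, adjusted p = 0.00172), S100A9 (3.18, adjusted p = 1.04e-05), S100A8 (3.15, adjusted p = 1.12e-05) and RETN (2.84, adjusted p = 0.000366). SH2D4A lost its call when any 1 of the 6 pairs was left out (differences of 3.85 to 6.13), and AVIL lost it without the 3 h pair of replicate 3 (2.94, adjusted p = 0.069).

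The difference was below 0 for CCL8 (-7.80, adjusted p = 2.47e-06), IL6 (-6.95, adjusted p = 4.77e-06), TNFSF13 (-3.56, adjusted p = 2.35e-06), SIGLEC1 (-3.53, adjusted p = 7.71e-05), ARHGEF10L (-3.47, adjusted p = 0.000448), GPR34 (-3.24, adjusted p = 0.000131), MSR1 (-3.17, adjusted p = 2.35e-07) and LPL (-3.05, adjusted p = 2.39e-07). ARHGEF10L and GPR34 were lower in exposed than in control wells at 3 h already and more so at 18 h. CCL8 was higher in exposed than in control wells at 3 h (1665 to 1980 against 196 to 316 CPM) and lower at 18 h (3.36 to 16.2 against 194 to 278 CPM), and LPL showed the same crossing (3969 to 4331 against 2779 to 3413 CPM, then 282 to 427 against 1766 to 2520 CPM).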

How the results depend on the processing

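In the exposed wells 2718 genes were called (1185 higher, 1533 lower). The count was 2688 with size factors of DESeq2's kind, 2896 with DESeq2, 2676 without a filter on low counts, 2355 with a mean of at least 50 counts, 2730 with offsets for effective length, 3153 at an adjusted p below 0.1, 3457 with no minimum fold, 2473 with the 6 exposed libraries alone and 2305 with all 24 in 1 fit. Leaving out each library gave 2205 to 2578. Of 2 alternatives chosen after seeing the data, thinning every library to 6297189 counts gave 2306 and scaling to the total count alone 3998.

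The block by letter pair, the paired analysis, raised the exposed count to 3388 (1558 higher, 1830 lower), the control count from 3 to 71 and the count for low minus high responders from 0 to 37. Among the named genes of the exposed change it added the calls given in the report and removed none. For the difference between exposed and control change, 2374 genes were called, 882 with no block and 2035 with the letter pair in place of the pair of wells, and leaving out each pair gave 1938 to 2180.

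The control count of 3 was 46 with DESeq2, 146 with DESeq2 and the letter block, 5 at an adjusted p below 0.1, 0 with the 6 control libraries alone and 0 to 2 without each control library. For low minus high responders DESeq2 called 4 and DESeq2 with the letter block 137, and leaving out each exposed library gave 0. The causes of these differences were not tested. No gene whose call or fold change was recomputed under the alternatives changed direction. Genes given by level alone were not recomputed singly, and those near 0 can turn (the immediate early genes went from 14 of 15 below 0 to 12 with total-count scaling). The shallowest exposed library, replicate 1 of 3 h, with 6475372 counts, limits what could be called among genes of few counts.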
